A study of Mus musculus with 24 samples.

Results

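The SLC25 family was followed in inguinal white adipose tissue, which lies beneath the skin, as all genes of the deposited table whose symbol begins Slc25a, apart from the citrate carrier Slc25a1, the ADP/ATP carriers Slc25a4 and Slc25a5 and the carnitine carrier Slc25a20. The rule gave 38 of the 17541 genes in the table, out of 42 Slc25a symbols. RNA came from 24 C57BL/6J wild-type mice on a high-fat diet, as the series title states, with 1 library per mouse. The groups were Aged BAM15 (92 weeks, n = 5), Young BAM15 (16 weeks, n = 6), Aged CTRL (92 weeks, n = 6) and Young CTRL (16 weeks, n = 7), with Young CTRL as the study's reference. BAM15 is a small molecule that carries protons across the inner mitochondrial membrane and so uncouples respiration from ATP synthesis, and the labels give no dose.

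SLC25 proteins are small carriers that mostly sit in the inner mitochondrial membrane and exchange amino acids, di- and tricarboxylates, phosphate, nucleotides, cofactors, iron or glutathione between the matrix and the cytosol. They are made in the cytosol and enter the inner membrane through the TIM22 translocase. In fat cells the family links the mitochondrial matrix to fatty acid synthesis, to amino acid breakdown and to heat production. The uncoupling proteins belong to it under other gene symbols.

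Promoter windows are printed for 3 members. Slc25a15 had the smallest p of the family, and Slc25a3 held the most counts of the family. Slc25a17 had a negative log2 change with BAM15 at both ages, as had Slc25a10, Slc25a39 and other members. Each window holds the 250 bases before a RefSeq start (GRCm38.p6), 5′ to 3′ on the minus strand of the chromosome, which is the strand of each gene. The genes are Slc25a15 (ENSMUSG00000031482, chr8:22375551-22398597), Slc25a17 (ENSMUSG00000022404, chr15:81318911-81360812) and Slc25a3 (ENSMUSG00000061904, chr10:91116574-91124059), all protein-coding (GRCm38). The windows lie at chr8:22398622-22398871, chr15:81360766-81361015 and chr10:91123968-91124217. By these coordinates the Slc25a17 and Slc25a3 windows reach into the 5′ end of the gene spans given, and the Slc25a15 window lies outside its span. Capitals mark a match to 1 of 4 motifs searched on both strands, a motif like the site of NRF-1, a regulator of mitochondrial genes, CCGGAAG (like the site of ETS factors such as GABP), CCAAT and CACGTG (an E-box).
Slc25a15: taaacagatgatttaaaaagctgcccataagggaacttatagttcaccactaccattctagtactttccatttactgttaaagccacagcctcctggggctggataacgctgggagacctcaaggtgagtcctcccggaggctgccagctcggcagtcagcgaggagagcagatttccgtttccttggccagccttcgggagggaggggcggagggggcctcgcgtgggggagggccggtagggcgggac
Slc25a17: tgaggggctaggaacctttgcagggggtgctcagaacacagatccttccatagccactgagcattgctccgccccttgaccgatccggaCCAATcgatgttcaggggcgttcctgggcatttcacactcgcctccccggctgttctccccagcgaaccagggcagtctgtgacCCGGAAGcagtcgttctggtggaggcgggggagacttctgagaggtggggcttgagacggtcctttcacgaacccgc
Slc25a3: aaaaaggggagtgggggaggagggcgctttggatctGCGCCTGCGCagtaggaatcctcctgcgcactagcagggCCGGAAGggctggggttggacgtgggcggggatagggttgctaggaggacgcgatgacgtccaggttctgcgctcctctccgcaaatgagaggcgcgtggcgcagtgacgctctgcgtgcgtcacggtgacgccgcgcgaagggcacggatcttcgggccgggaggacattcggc
The Slc25a15 window, at 1 of its 2 annotated starts, held none of the 4 motifs, and the window of its other start held CACGTG. The Slc25a17 window held CCAAT and CCGGAAG, which did not overlap, and the Slc25a3 window held the NRF-1-like motif, read on the opposite strand, and CCGGAAG. Windows were found for 29 of the 38 members, 39 in all. CCAAT stood in 46.2% of these windows against 33.8% of all promoters in the table, CACGTG in 15.4% against 6.02%, CCGGAAG in 7.69% against 6.91% and the NRF-1-like motif in 2.56% against 3.74%. These shares describe letters and not bound sites.

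Library totals ran from 8.62 to 21.9 M counts, and the 38 members held 0.142 to 0.260% of the counts of a library. Adipocyte markers (Adipoq, Plin1, Fabp4, Lpl and Cidec) summed to 17662 to 83231 CPM (counts of a gene per 1 M normalised counts of the library), while the brown fat gene Ucp1 reached at most 7.76 CPM and was at 0 in 8 libraries. Other markers moved between libraries. The 6 B cell markers summed to 2.15, 322 and 1018 CPM (lowest, median, highest) in Young BAM15, against 1.13, 2.03 and 278 CPM in Young CTRL. The 7 skeletal muscle markers reached 51421 CPM in Young BAM15 3, 18736 CPM in Aged CTRL 1 and 47522 CPM in Young CTRL 7, and skin keratin genes were high in Young CTRL 1 and Young CTRL 7. In Aged BAM15 2, Aged BAM15 5, Aged CTRL 2 and Young CTRL 4 the mitochondrial ribosomal RNA mt-Rnr2 was low, at 0.121 to 0.257% of counts against 0.722 to 2.26% in the other 20. The same 4 had the highest share of mitochondrial counts (12.0 to 21.4% against 4.82 to 9.27%) and the largest totals (18.4 to 21.9 M against 8.62 to 17.9 M). Their part in the results was not tested beyond leaving them out, and values without them are given where they matter. In whole tissue, fewer cells of a type and less RNA per cell cannot be told apart.

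Of the 38 members, 36 passed the filter on low counts and were tested. The glutamate carrier Slc25a18 had 73 counts in all and was at 0 in 15 libraries, and the oxodicarboxylate carrier Slc25a21 had 90 counts and was at 0 in 10 libraries. Within groups, the median member had a standard deviation (SD) of 0.63 on the log2 scale, close to the 0.69 of the median gene. The spread within a group differed widely between members, and Slc25a44 at 0.31 and Slc25a51 at 0.32 were the steadiest. Slc25a34 (1.80), Slc25a27 (1.38), Slc25a48 (1.36), Slc25a29 (1.29) and Slc25a43 (1.15), all with a mean under 3 CPM, and Slc25a13 (1.17) and Slc25a12 (1.11) varied most. Each library counts 3′ ends, and CPM is not divided by transcript length. Levels are compared between groups for a gene. Differences in level between genes served only to choose genes to name and were not interpreted.

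No SLC25 carrier passed the threshold of an adjusted p under 0.05 in any of the 6 tests by the quasi-likelihood test of edgeR: 4 pairwise comparisons, the interaction of age and BAM15, and the test for any difference among the 4 groups. The family member nearest to it was Slc25a15, the ornithine carrier of the urea cycle and of proline and polyamine metabolism, which was lowest in Young BAM15. The plot of log2 changes shows the family by role.

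**Figure D1:**
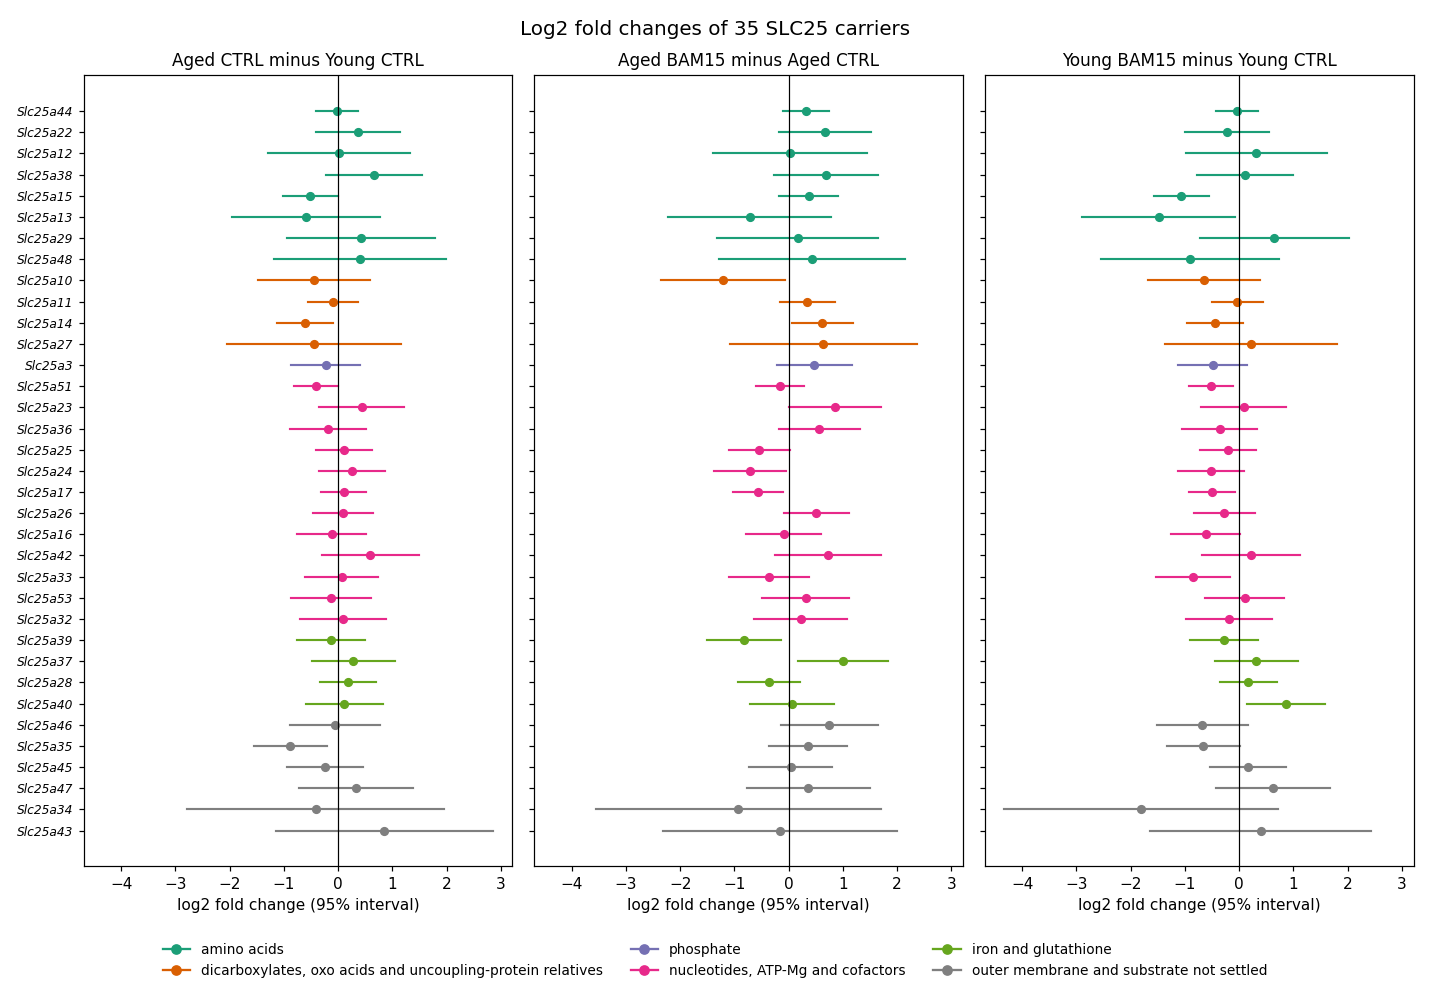
Log2 fold change (x axis) of 35 of the tested carriers (y axis, coloured by role group) in 3 comparisons, with bars for the 95% interval. The Slc25a15 interval in Young BAM15 minus Young CTRL lies between -1.58 and -0.56, and most other intervals cross 0.

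What the uncoupler does in the depot of young mice was asked by setting Young BAM15 against Young CTRL. Slc25a15 had 6.97, 8.78 and 12.3 CPM in Young BAM15 (lowest, median, highest), against 13.1, 14.7 and 31.5 CPM in Young CTRL. Every Young BAM15 library lay below every Young CTRL library. It was the only tested member whose CPM did not overlap between these groups, where 1.19% of the 15939 genes did not overlap. The mean was 9.06 ± 1.86 CPM in Young BAM15 (n = 6, SD) and 19.0 ± 7.21 CPM in Young CTRL (n = 7, SD), a log2 change of -1.07 ± 0.25 (SE) with an edgeR adjusted p of 0.179.

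The call of Slc25a15 depended on the tool: the adjusted p was 0.0126 with DESeq2, which called 1.02% of all genes, and 0.0184 with limma-voom, which called 3.96%. Without the 4 libraries low in mt-Rnr2 the change was -0.93 ± 0.20 (SE) with an edgeR adjusted p of 0.0719. B cell markers differed between the same groups, and with B cell and muscle covariates the change was -1.04 ± 0.30 (SE, edgeR adjusted p = 0.258). In Young BAM15 1, where B cell markers summed to 2.15 CPM, Slc25a15 had 9.18 CPM. The other Young BAM15 libraries had 225 to 1018 CPM of these markers. In Young CTRL 1 and Young CTRL 5, with 251 and 278 CPM of them, Slc25a15 had 19.1 and 14.3 CPM. The other Young CTRL libraries had 1.13 to 5.02 CPM of these markers. Beyond the covariates, the part of B cell content in the Slc25a15 difference was not tested. The summed adipocyte markers also differed, with a median of 27506 CPM in Young BAM15 and 42665 CPM in Young CTRL, and their part in the Slc25a15 difference was not tested.

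Slc25a51, which carries NAD+ into mitochondria, had 127, 158 and 214 CPM in Young BAM15 (lowest, median, highest), against 172, 225 and 354 CPM in Young CTRL. The groups overlapped, and the log2 change was -0.52 ± 0.20 (SE) with an edgeR adjusted p of 0.284. Slc25a33, a pyrimidine nucleotide carrier, had 5.44, 6.63 and 7.99 CPM in Young BAM15, against 3.81, 10.5 and 30.9 CPM in Young CTRL. The Young CTRL values spread on both sides of the Young BAM15 range, with the highest in the skin keratin library Young CTRL 1. The log2 change was -0.85 ± 0.33 (SE, edgeR adjusted p = 0.293), and -0.41 without that library.

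With edgeR, 0 of 36 members and 0% of all genes were called in Young BAM15 minus Young CTRL. At an unadjusted p under 0.05 there were 6 members, or 16.7%, near the 13.1% of all genes. These were Slc25a15, Slc25a51, Slc25a33, the peroxisomal cofactor carrier Slc25a17 (log2 -0.50 ± 0.20 SE) and the aspartate-glutamate carrier Slc25a13 (-1.49 ± 0.68), which were lower in Young BAM15, and the glutathione carrier Slc25a40 (0.86 ± 0.35), which was higher. Without Young CTRL 1 the Slc25a13 value was -0.48. There were 10 such members without the 4 low mt-Rnr2 libraries, or 27.8% against 19.9% of all genes. The median log2 change was -0.23 over the 36 members and 0.03 over all genes, and 13 of 36 members, or 36.1%, were above 0 against 52.7% of all genes.

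The same question in old mice set Aged BAM15 against Aged CTRL. Slc25a17, which exchanges CoA, FAD and NAD+ across the peroxisomal membrane, had 24.6, 41.9, 17.9, 18.8 and 32.3 CPM in the 5 Aged BAM15 libraries, against 30.9, 38.6 and 51.1 CPM in Aged CTRL (lowest, median, highest). The groups overlapped, as did those of all 36 members (0.709% of all genes did not overlap), with Aged BAM15 2 and Aged BAM15 5 inside the Aged CTRL range and the other 3 below it. The log2 change was -0.57 ± 0.22 (SE, edgeR adjusted p = 0.43). Without the 4 low mt-Rnr2 libraries it was -0.90 (edgeR adjusted p = 0.202).

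Slc25a39, which imports glutathione, had 146, 66.7, 89.9, 95.2 and 27.8 CPM in Aged BAM15, against 89.2, 158 and 220 CPM in Aged CTRL (lowest, median, highest). The log2 change was -0.82 ± 0.33 (SE, edgeR adjusted p = 0.458), and the lowest library of each of these groups was low in mt-Rnr2. Without the 4 such libraries it was -0.57 ± 0.25 (SE, edgeR adjusted p = 0.389). Slc25a37, mitoferrin-1, which imports iron, had 24.1, 204, 35.1, 48.3 and 42.8 CPM in Aged BAM15, against 24.4, 34.5 and 51.0 CPM in Aged CTRL. Aside from Aged BAM15 2, all Aged BAM15 libraries lay near or within the Aged CTRL range. Its log2 change was 1.00 ± 0.40 (SE, edgeR adjusted p = 0.458) in all libraries and 0.13 without the 4 low mt-Rnr2 libraries.

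With edgeR, 0 of 36 members and 0% of all genes were called in Aged BAM15 minus Aged CTRL. DESeq2 called 0 of 36 members and 0.662% of all genes. Limma-voom with sample quality weights called 3 members, Slc25a17, Slc25a39 and the ATP-Mg/phosphate carrier Slc25a24, all lower in Aged BAM15, or 8.33% against 6.06% of all genes. At an unadjusted edgeR p under 0.05 there were 7 members, or 19.4% against 9.10% of all genes, 3 higher and 4 lower. The median log2 change was 0.27 over the members, with 24 of 36 above 0, and 0.02 over all genes, with 51.7% above 0. Without the 4 low mt-Rnr2 libraries the members' median was -0.04, with 17 of 36 above 0 and 3 at an unadjusted p under 0.05, or 8.33% against 11.6% of all genes.

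**Figure D2:**
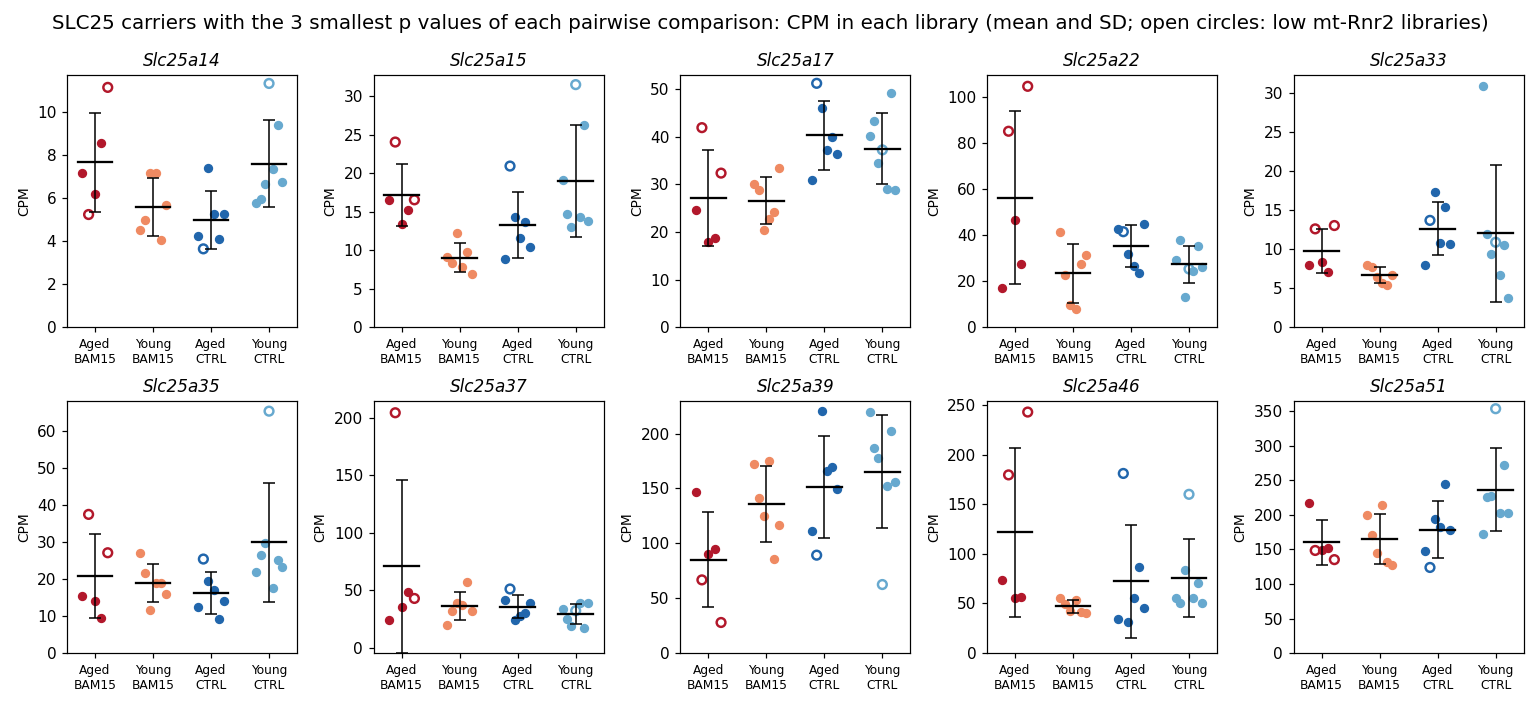
CPM (y axes, linear) in each library, by group, of the 10 carriers with 1 of the 3 smallest p values of a pairwise comparison, with the mean and SD as black lines and the 4 low mt-Rnr2 libraries as open circles. Slc25a15 lies at 6.97 to 12.3 CPM in Young BAM15 and at 13.1 to 31.5 CPM in Young CTRL, and the highest Slc25a37, Slc25a46 and Slc25a22 values are open circles.

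The effect of age without the compound was read from Aged CTRL against Young CTRL. Slc25a35, a carrier whose substrate is not settled, had 9.20, 15.5 and 25.4 CPM in Aged CTRL (lowest, median, highest), against 17.6, 25.3 and 65.3 CPM in Young CTRL. The groups overlapped, as did those of all 36 members (0.489% of all genes did not overlap), and the log2 change was -0.88 ± 0.33 (SE, edgeR adjusted p = 0.362). Slc25a14, a brain-enriched relative of the uncoupling proteins, had 3.64, 4.75 and 7.40 CPM in Aged CTRL, against 5.78, 6.72 and 11.3 CPM in Young CTRL, a log2 change of -0.61 ± 0.25 (SE, edgeR adjusted p = 0.461). For both carriers the highest Young CTRL value was in Young CTRL 4, a low mt-Rnr2 library, and without the 4 such libraries the changes were -0.74 and -0.41.

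Slc25a15 had 8.84, 12.6 and 20.9 CPM in Aged CTRL (lowest, median, highest), beside the Young CTRL values above. Its log2 change with age was -0.51 ± 0.24 (SE, edgeR adjusted p = 0.576). With edgeR, 0 of 36 members were called, where 0.207% of all genes were, and DESeq2 and limma-voom called 0 members, with 1.15% and 0.910% of all genes. At an unadjusted p under 0.05 edgeR gave 4 members, or 11.1% against 8.43% of all genes, all lower in Aged CTRL: Slc25a35, Slc25a14, Slc25a15 and Slc25a51. This count was 2 without the 4 low mt-Rnr2 libraries, or 5.56% against 11% of all genes. The members' median log2 change was 0.00, with 18 of 36 above 0, and that of all genes -0.04, with 46.5% above 0.

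Aged BAM15 was set against Young BAM15 to compare the ages under treatment. Slc25a15 had 16.5, 24.0, 13.4, 15.3 and 16.5 CPM in Aged BAM15, and all of these lay above the highest Young BAM15 value of 12.3 CPM. The log2 change was 0.92 ± 0.26 (SE, edgeR adjusted p = 0.128), and the adjusted p was 0.0359 with DESeq2 and 0.0391 with limma-voom. Both comparisons of Slc25a15 use the same Young BAM15 libraries, so they are not separate evidence.

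Slc25a46, an outer membrane protein that takes part in mitochondrial fission, had 73.6, 179.8, 55.8, 56.5 and 243 CPM in Aged BAM15, against 40.0, 46.2 and 55.1 CPM in Young BAM15 (lowest, median, highest). The groups did not overlap, with the 2 lowest Aged BAM15 libraries just above the highest Young BAM15 library. The log2 change was 1.37 ± 0.44 (SE, edgeR adjusted p = 0.159) and 0.42 without the low mt-Rnr2 libraries. Slc25a22, a glutamate carrier, had 17.1, 85.3, 46.8, 27.4 and 105 CPM in Aged BAM15, against 7.99, 25.1 and 41.4 CPM in Young BAM15, a log2 change of 1.26 ± 0.41 (SE, edgeR adjusted p = 0.168). Without these libraries it was 0.40.

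With edgeR, 0 of 36 members were called in Aged BAM15 minus Young BAM15, where 0.427% of all genes were. DESeq2 gave an adjusted p for 28 members and called 1, Slc25a15, with 3.38% of all genes, and limma-voom called the same carrier, with 1.89%. Non-overlap held for 2 of 36 members, Slc25a15 and Slc25a46, and for 2.06% of all genes. At an unadjusted edgeR p under 0.05 there were 9 members, all higher in Aged BAM15, or 25% against 16.4% of all genes. Only 1 such member was left without the 4 low mt-Rnr2 libraries, Slc25a15, or 2.78% against 6.49% of all genes. The members' median log2 change was 0.29 with all libraries and 0.12 without the 4, against -0.10 and -0.03 for all genes.

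The interaction asked whether the BAM15 difference itself differed with age. For Slc25a15 the log2 difference was 1.44 ± 0.36 (SE), and its edgeR adjusted p over all genes was 0.899. The BAM15 change itself was 0.37 ± 0.26 (SE) in aged mice and -1.07 ± 0.25 (SE) in young mice. The next members by p were Slc25a14 (1.06 ± 0.37) and Slc25a46 (1.43 ± 0.59), each with an edgeR adjusted p of 0.899, and without the 4 low mt-Rnr2 libraries they had 0.82 and 0.69. With edgeR, 0 of 36 members and 0% of all genes were called, DESeq2 called 0 members and 0.0126% of all genes, and limma-voom called 0 of either. At an unadjusted p under 0.05 there were 5 members, all positive, or 13.9% against 5.08% of all genes, and 2 without the 4 low mt-Rnr2 libraries, or 5.56% against 3.32%.

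In the test for any difference among the 4 groups, edgeR called 0 of 36 members and 2.47% of all genes, and Slc25a15 had the smallest adjusted p, 0.0587. At an unadjusted p under 0.05 there were 12 members, or 33.3% against 19.9% of all genes. DESeq2 called Slc25a15 and the ATP-Mg/phosphate carrier Slc25a23, 2 of 35 members or 5.71%, against 9.64% of all genes. Limma-voom called 6 of 36 members or 16.7%, against 17.1% of all genes: Slc25a10, Slc25a15, Slc25a17, Slc25a24, Slc25a35 and Slc25a39. Neither of these last 2 shares lay above that of all genes. Leaving out Aged CTRL 2 alone gave 3 edgeR calls in this test, Slc25a15, Slc25a23 and the glycine carrier Slc25a38. Leaving out all 4 low mt-Rnr2 libraries gave 2, Slc25a15 and Slc25a17. Calls over all genes in this test ran from 52 to 2729 over the settings tried. The shares of all genes called in these refits are not given here, so these calls are not read as a result about the family.

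Some carriers set the 4 low mt-Rnr2 libraries apart from the other 20, whatever their group. Slc25a3, which brings phosphate into the matrix for ATP synthesis, had 464, 990, 344, 310 and 1268 CPM in Aged BAM15, 328, 402 and 543 CPM in Young BAM15, 405, 484 and 613 CPM in Aged CTRL and 375, 486 and 1231 CPM in Young CTRL (lowest, median, highest for the last 3 groups). All 4 low mt-Rnr2 libraries, at 613 to 1268 CPM, lay above the other 20, at 310 to 543 CPM. In all, 7 of 36 members, or 19.4%, did not overlap between the 4 and the other 20 libraries, where 15.7% of all genes did not, so the carriers were near the background. All 4 libraries lay above the other 20 for 4 members, and for 6.91% of all genes, and below them for 3 members, and for 8.76% of all genes. Besides Slc25a3, the 4 lay above the others for Slc25a46 (160.2 to 243 against 31.5 to 86.9 CPM), Slc25a23 (99.6 to 238 against 27.6 to 60.3 CPM) and the pyrimidine nucleotide carrier Slc25a36 (85.7 to 148 against 27.9 to 59.3 CPM).

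The other 3 carriers that separated lay the opposite way, with all 4 libraries below the other 20. These were mitoferrin-2, Slc25a28 (12.2 to 21.8 against 23.3 to 50.2 CPM), the basic amino acid carrier Slc25a29 (0.115 to 0.521 against 1.48 to 6.31 CPM) and Slc25a40 (1.72 to 4.73 against 5.31 to 14.7 CPM). Such libraries made up 2 of 5 in Aged BAM15, 0 of 6 in Young BAM15, 1 of 6 in Aged CTRL and 1 of 7 in Young CTRL. For Slc25a3, Aged BAM15 minus Aged CTRL was 0.47 ± 0.33 (SE) on the log2 scale with all libraries and -0.31 without the 4. Its interaction was 0.96 ± 0.45 (SE) with all libraries and -0.10 without the 4.

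**Figure D3:**
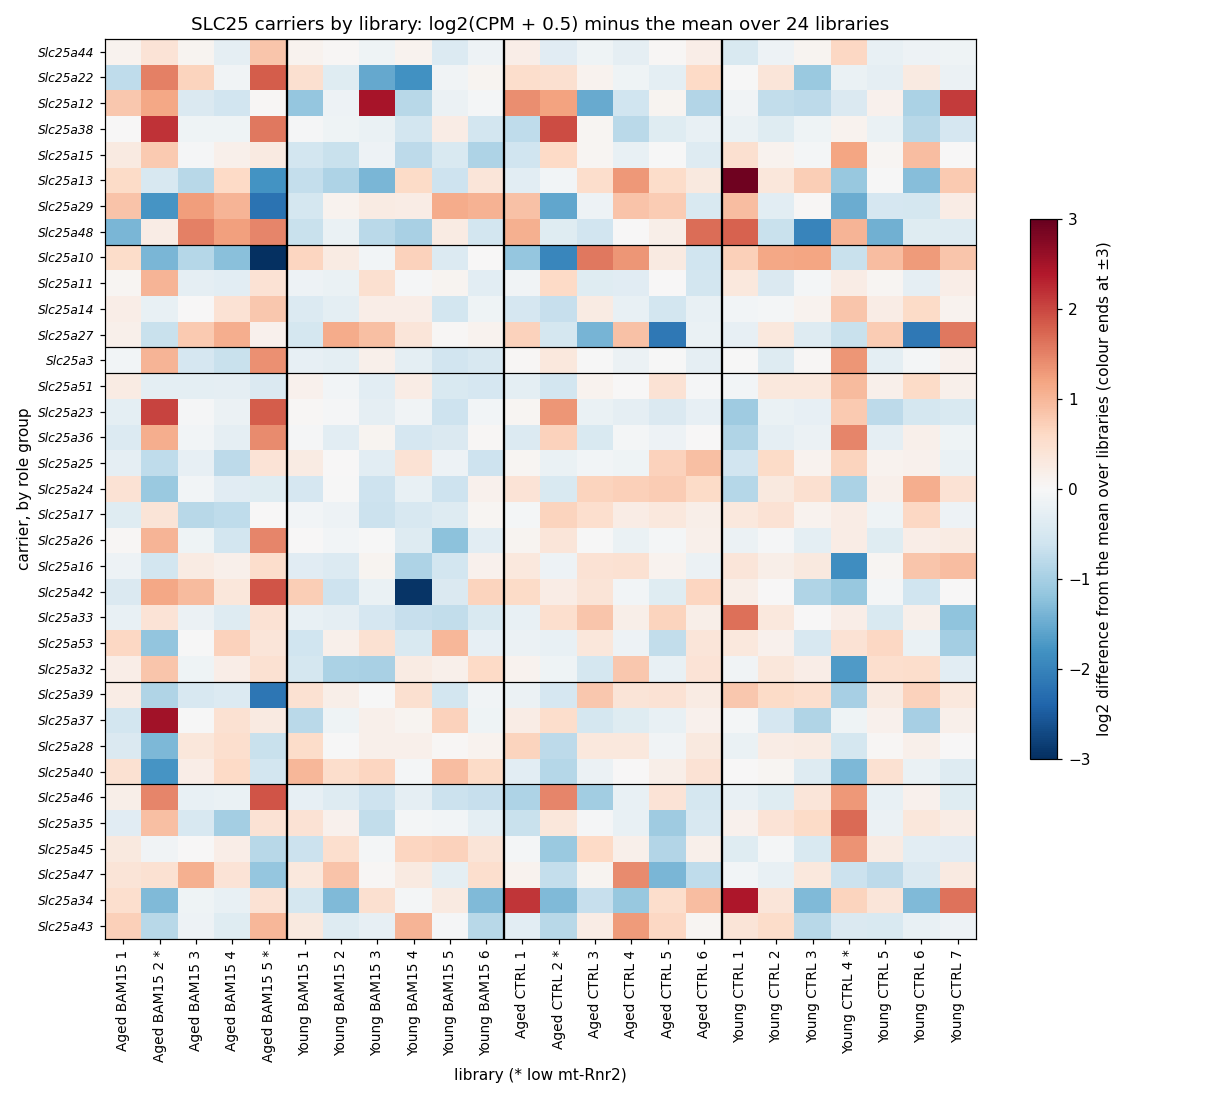
Colours show log2(CPM + 0.5) minus the mean over the 24 libraries for 35 carriers (rows, by role group) in each library (columns, by group, with an asterisk for low mt-Rnr2). Slc25a3, Slc25a23, Slc25a36 and Slc25a46 are red in the 4 marked columns, where Slc25a28, Slc25a29 and Slc25a40 are blue.

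**Figure D4:**
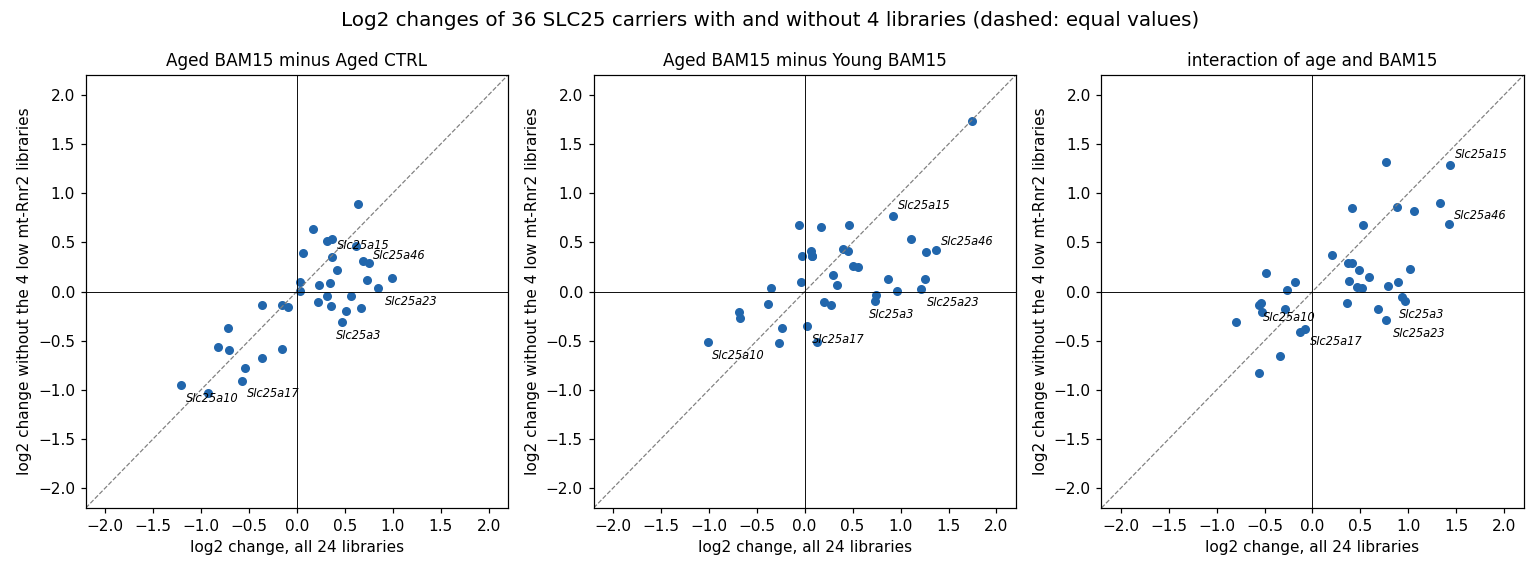
Log2 change of each of 36 carriers with all 24 libraries (x axis) and without the 4 low mt-Rnr2 libraries (y axis) in 3 comparisons, where the dashed line marks equal values. Slc25a15 stays near the line (1.44 and 1.28 in the interaction), while Slc25a3 lies near 0 on the y axis in the interaction (0.96 and -0.10).

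Among the 8 amino acid carriers tested, 7 had a positive log2 change in Aged BAM15 minus Aged CTRL, 3 in Young BAM15 minus Young CTRL and 5 in Aged CTRL minus Young CTRL. Over all genes, 51.7%, 52.7% and 46.5% were positive in that order, which applies to the counts of every role group. Slc25a44, which imports branched-chain amino acids and is known from brown fat, averaged 97.0 ± 29.3 CPM in Aged BAM15 (n = 5, SD), 76.5 ± 10.2 in Young BAM15 (n = 6, SD), 77.8 ± 12.5 in Aged CTRL (n = 6, SD) and 78.8 ± 21.3 in Young CTRL (n = 7, SD). Its log2 changes were 0.32 ± 0.21, -0.04 ± 0.19 and -0.02 ± 0.19 (SE) in these 3 comparisons. For Slc25a22 the corresponding changes were 0.67 ± 0.41, -0.22 ± 0.38 and 0.37 ± 0.38 (SE). Without the 4 low mt-Rnr2 libraries, 5, 4 and 4 of the 8 were positive in these 3 comparisons. Slc25a44 and Slc25a22 then both turned sign in Aged BAM15 minus Aged CTRL, to -0.04 and -0.17. The other 2 Slc25a44 changes, close to 0, also turned sign, to 0.07 and 0.18.

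The aspartate-glutamate carrier Slc25a12 had 42.1 CPM in Aged BAM15 2, 105 CPM in Young BAM15 3, 49.6 CPM in Aged CTRL 1 and 81.6 CPM in Young CTRL 7. These were the highest values of their groups, and all but Aged BAM15 2 had the highest muscle marker sum of their group. Aged CTRL 2, with the lowest muscle marker sum of its group at 16.65 CPM, had 43.8 CPM of Slc25a12. Its group medians were 19.1 CPM in Aged BAM15, 16.4 in Young BAM15, 15.9 in Aged CTRL and 13.6 in Young CTRL. The other aspartate-glutamate carrier, Slc25a13, reached 21.4 CPM in the skin keratin library Young CTRL 1 and at most 6.69 CPM in any library of the other 3 groups. The part of muscle and skin in these values was not tested.

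Slc25a38, which brings glycine in for haem synthesis, had 12.6, 13.9 and 63.8 CPM in Aged BAM15 (lowest, median, highest), 9.30, 12.4 and 16.3 in Young BAM15, 7.67, 11.3 and 55.6 in Aged CTRL and 7.55, 12.0 and 15.0 in Young CTRL. The highest values in Aged BAM15 and Aged CTRL were those of Aged BAM15 2 and Aged CTRL 2, both low in mt-Rnr2. Its log2 change between the treated ages was 1.26 with all libraries and 0.13 without the 4 such libraries. Slc25a29 and Slc25a48 completed the group at means of 2.95 and 2.06 CPM over the 24 libraries. Slc25a48 was counted in this group although no amino acid substrate is established for it.

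All 4 tested carriers of dicarboxylates and oxo acids and relatives of uncoupling proteins had a negative log2 change in Aged CTRL minus Young CTRL, from -0.61 to -0.10, and none was called. Slc25a10, which exchanges malate and succinate for phosphate, averaged 45.0 ± 39.7 CPM in Aged BAM15 (n = 5, SD), 90.7 ± 26.8 in Young BAM15 (n = 6, SD), 104 ± 88.9 in Aged CTRL (n = 6, SD) and 142 ± 47.0 in Young CTRL (n = 7, SD). Its log2 changes were -1.21 ± 0.56 in Aged BAM15 minus Aged CTRL, -0.65 ± 0.50 in Young BAM15 minus Young CTRL and -0.45 ± 0.50 (SE) in Aged CTRL minus Young CTRL. Without the 4 low mt-Rnr2 libraries they were -0.96, -0.82 and -0.38. Slc25a11, the oxoglutarate-malate carrier, had smaller changes with all libraries, 0.35 ± 0.24, -0.03 ± 0.23 and -0.10 ± 0.23 (SE). The first of these was 0.09 without the 4 low mt-Rnr2 libraries. Slc25a27, another relative of the uncoupling proteins, lay at 0 to 6.12 CPM.

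Of the 13 carriers of nucleotides, ATP-Mg and cofactors, 7 were positive in Aged BAM15 minus Aged CTRL, 3 in Young BAM15 minus Young CTRL and 8 in Aged CTRL minus Young CTRL. These counts were 4, 5 and 8 without the 4 low mt-Rnr2 libraries. The substrate of Slc25a53, which was counted among the 13, is not settled. Slc25a51 had log2 changes of -0.15 ± 0.21 in Aged BAM15 minus Aged CTRL and -0.41 ± 0.20 (SE) with age, the second of which was -0.20 without these libraries.

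Slc25a24 averaged 26.9 ± 10.3 CPM in Aged BAM15 (n = 5, SD) and 44.0 ± 11.4 CPM in Aged CTRL (n = 6, SD), and 25.6 ± 5.94 CPM in Young BAM15 (n = 6, SD) and 36.9 ± 17.3 CPM in Young CTRL (n = 7, SD). Its relative Slc25a23 lay the other way in aged mice, at 119 ± 93.4 CPM in Aged BAM15 and 66.1 ± 39.5 CPM in Aged CTRL (SD), and its log2 change of 0.85 ± 0.41 (SE) was 0.04 without the 4 low mt-Rnr2 libraries. The S-adenosylmethionine carrier Slc25a26 and the CoA carrier Slc25a42 had log2 changes of 0.87 ± 0.29 and 1.11 ± 0.47 (SE) in Aged BAM15 minus Young BAM15, and 0.12 and 0.53 without these libraries. The folate carrier Slc25a32, and Slc25a16, Slc25a25 and Slc25a53, had no unadjusted p under 0.05 in any of the 4 pairwise comparisons with all 24 libraries. Without the 4 low mt-Rnr2 libraries Slc25a16 had -0.83 ± 0.21 (SE, edgeR adjusted p = 0.0927) in Young BAM15 minus Young CTRL, and Slc25a25 had -0.78 ± 0.29 (SE, edgeR adjusted p = 0.342) in Aged BAM15 minus Aged CTRL.

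Of the 4 carriers of iron and glutathione, 3 were positive in Young BAM15 minus Young CTRL and 2 in Aged BAM15 minus Aged CTRL. Slc25a40 had 6.77, 11.2 and 14.7 CPM in Young BAM15 (lowest, median, highest), against 2.50, 6.16 and 9.97 CPM in Young CTRL. Slc25a39, the other glutathione carrier, had a log2 change of -0.28 ± 0.30 (SE) in that comparison and Slc25a37 one of 0.31 ± 0.37 (SE). Without the 4 low mt-Rnr2 libraries these were -0.45 and 0.31. Slc25a28 averaged 28.0 ± 13.8 CPM in Aged BAM15 (n = 5, SD), 35.8 ± 5.48 in Young BAM15 (n = 6, SD), 35.9 ± 10.9 in Aged CTRL (n = 6, SD) and 31.8 ± 5.59 in Young CTRL (n = 7, SD).

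In the last group, of Slc25a46 and 5 carriers whose substrate is not settled, Slc25a46 had log2 changes of 0.75 ± 0.44 in Aged BAM15 minus Aged CTRL, -0.68 ± 0.41 in Young BAM15 minus Young CTRL and -0.06 ± 0.40 (SE) in Aged CTRL minus Young CTRL. Slc25a35 had 0.35 ± 0.35, -0.66 ± 0.32 and -0.88 ± 0.33 (SE) in the same order. The first 2 of these values were 0.29 and -0.41 for Slc25a46 and -0.14 and -0.37 for Slc25a35 without the 4 low mt-Rnr2 libraries. Slc25a45 ran from 4.06 to 24.9 CPM, with the highest value in Young CTRL 4, and Slc25a47 from 0.434 to 5.94 CPM. Slc25a34 and Slc25a43 had 0 counts in some libraries and the widest spread between libraries of this group, with log2 changes of -1.81 ± 1.22 for Slc25a34 in Young BAM15 minus Young CTRL and 0.85 ± 0.97 (SE) for Slc25a43 in Aged CTRL minus Young CTRL.

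The machinery that inserts carriers was read from the same fit. Of 13 tested genes of the TIM22 route, with its chaperones and the outer membrane receptors, 0 were called by edgeR in any of the 6 tests. DESeq2 called 1 between the treated ages (Tomm40), where it called 3.38% of all genes, and 4 in the 4-group test, where it called 9.64%. Limma-voom called 2 in Aged BAM15 minus Aged CTRL (Timm22 and Tomm20), with 6.06% of all genes, and 3 in the 4-group test, with 17.1%. In Young BAM15 minus Young CTRL, 12 of the 13 were negative, where 52.7% of all genes were positive. The median log2 change of the 13 was -0.49 against 0.03 over all genes, and 5 of them had an unadjusted p under 0.05, as had 13.1% of all genes. Leaving out the 4 low mt-Rnr2 libraries, 12 were again negative and 8 had such a p, as had 19.9% of all genes. With all 24 libraries, the 2 smallest p values of this comparison were those of the receptors Tomm70a (-0.64 ± 0.22) and Tomm20 (-0.56 ± 0.20). Their edgeR adjusted p values were 0.269 and 0.271, and without the 4 libraries the changes were -0.44 and -0.48. In Aged BAM15 minus Aged CTRL, where 6 of 13 were positive, the TIM22 channel Timm22 had -0.75 ± 0.22 and the outer membrane channel Tomm40 0.90 ± 0.43 (SE), which were -0.50 and 0.35 without the 4 libraries. With age, 5 of 13 were positive, and the receptor Tomm22 had -0.55 ± 0.22 and the chaperone Timm10 0.89 ± 0.46 (SE). The Timm10 value rested on Aged CTRL 2 and was -0.12 without it, and without the 4 libraries Tomm22 had -0.25 and Timm10 -0.03. Between the treated ages Tomm40 had 1.57 ± 0.43 and Timm10 1.38 ± 0.50 (SE), against 0.46 and 0.32 without the 4. In the interaction the chaperone Timm9 had 1.48 ± 0.61 and Tomm70a 0.77 ± 0.32 (SE), against 0.31 and 0.36 without the 4.

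Of 20 other transport proteins of mitochondrial membranes, 0 were called by edgeR in any of the 6 tests. Among them, Ucp2, Ucp3, Mtch1 and Mtch2 belong to the family but fell outside the symbol rule. Of the 20, DESeq2 called 3 in the 4-group test, where it called 9.64% of all genes. Limma-voom called 4 in Aged BAM15 minus Aged CTRL (Cpt1a, Letm1, Sfxn1 and the pyruvate carrier subunit Mpc2), 1 in Young BAM15 minus Young CTRL (Cpt1a), 1 between the treated ages (Letm1) and 5 in the 4-group test, where it called 6.06%, 3.96%, 1.89% and 17.1% of all genes in that order. In Young BAM15 minus Young CTRL, 3 were positive, against 52.7% of all genes, and the median log2 change was -0.28. Letm1, a cation exchanger, had -0.47 ± 0.17 and Cpt1a, the outer membrane carnitine palmitoyltransferase, -0.92 ± 0.34 (SE), with edgeR adjusted p of 0.271 and 0.275. In Aged BAM15 minus Aged CTRL, 5 were positive, with the serine carrier Sfxn1 at 1.02 ± 0.28 and Letm1 at -0.37 ± 0.18 (SE), and Sfxn1 had 0.67 without the 4 low mt-Rnr2 libraries. With age, 8 were positive, with Letm1 at -0.40 ± 0.17 and the insertase Mtch2 at -0.48 ± 0.21 (SE), the second of which was -0.24 without the 4. Between the treated ages Cpt1a had 1.03 ± 0.36 and the uncoupling protein Ucp3 1.08 ± 0.55 (SE). Without the 4 libraries Cpt1a had 0.37 there, and Ucp3 turned sign, to -0.33, as it did with limma-voom, to -0.06. In the interaction Sfxn1 had 0.89 ± 0.38 and Sfxn2 1.07 ± 0.55 (SE), against 0.30 and 0.61 without the 4.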

How the data were processed

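RNA from 24 mice was sequenced from 3′ ends with the Lexogen QuantSeq kit, per the labels' protocols. The deposited files hold raw counts per Ensembl gene and a signal, which is each raw count over the size factor of its library (largest deviation 6.52e-09 counts). The submitters' processing notes name R 3.4.3, DESeq2 1.18.1 and GRCm38. The aligner is not given in the sources used here. Raw counts were normalised (TMM) and filtered with filterByExpr of edgeR 4.0.16 in R 4.3.3, which kept 15939 of 17541 genes. The quasi-likelihood F-test was fitted to all 24 libraries with a group term, with Benjamini-Hochberg adjustment over the 15939 genes and calls at an adjusted p under 0.05. CPM used TMM library sizes. The SE is the absolute log2 change over the square root of F.

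Alternatives were DESeq2 1.42.0, limma-voom (limma 3.58.1), other factors and filters, fits to the compared groups, a replicate block, marker covariates, and libraries left out. Per-library values are given for the 3 members with the smallest p in each pairwise comparison. The 2 members of highest mean CPM in each role group, and the 2 smallest p values of each pathway list, were also named by rule, and 1 carrier so reached is not reported here. Slc25a3 and further carriers with a log2 change or level were named after their values were seen. Members and lists were chosen with earlier results of these data known. Same-numbered libraries of different groups deviated with a median r of -0.04 across genes (other pairs 0.00), so numbers were read as names. The scripts were tested on simulated data.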

Additional observations from a re-analysis of the deposited data

Results flagged for a closer look

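Among the 10 members with values per library, 7 of 40 groups of libraries held a library far from the others of its group. The rule flags about 1 in 20 groups of independent, normally distributed values. These members share libraries and were picked by p, and linear CPM need not be normal, so that rate cannot be applied here. Of the 7, 5 concern libraries low in mt-Rnr2: Slc25a37 had 204 CPM in Aged BAM15 2 (the next was 48.3), Slc25a46 had 181 CPM in Aged CTRL 2 (next 86.9) and 160.2 CPM in Young CTRL 4 (next 83.5), Slc25a35 had 65.3 CPM in Young CTRL 4 (next 29.7), and Slc25a39 had 62.4 CPM in Young CTRL 4 (next 152). The other 2 were Slc25a33, at 30.9 CPM in the skin keratin library Young CTRL 1 (next 12.0), and Slc25a51, at 218 CPM in Aged BAM15 1 (next 152).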

How the results depend on the processing

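With edgeR, 0 members were called in the 5 contrasts under every normalisation, filter, covariate and left-out library tried, and leaving out single libraries gave 0 to 3 calls in the test for any difference among the 4 groups (3 without Aged CTRL 2, and 2 without the 4 low mt-Rnr2 libraries). The shares of all genes called in these refits are not given, so the 0 to 3 calls are not set against a background. DESeq2 called 1, 1 and 2 members in Young BAM15 minus Young CTRL, Aged BAM15 minus Young BAM15 and the 4-group test, and limma-voom 3, 1, 1 and 6 in Aged BAM15 minus Aged CTRL and the same 3 tests. Over all genes the calls ran from 0 to 966 in Aged BAM15 minus Aged CTRL and 0 to 631 in Young BAM15 minus Young CTRL, both highest with limma-voom. They ran from 4 to 179 with age and 0 to 2 in the interaction. Between the treated ages they ran from 13 to 370 and in the 4-group test from 52 to 2729, both lowest with the replicate block. With the replicate block 0 members were called in all 6 tests, and the Slc25a15 change in Young BAM15 minus Young CTRL was -1.12 (adjusted p = 0.426). The replicate numbers are not known to pair the mice, and 3 of 24 libraries correlated best with their own number. Over all settings tried the Slc25a15 change there kept its sign, from -1.24 without the 2 highest muscle libraries to -0.89 with limma-voom.

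The changes that turned sign were uncalled, and the cause was not tested. Without the 4 low mt-Rnr2 libraries 7 of 36 members turned sign in Aged BAM15 minus Aged CTRL, 3 in Young BAM15 minus Young CTRL, 7 with age, 10 between the treated ages and 8 in the interaction. Among the genes named for their change, the values in Aged BAM15 minus Aged CTRL were -0.31 for Slc25a3, -0.17 for Slc25a22, -0.14 for Slc25a35 and -0.044 for Slc25a44. In Young BAM15 minus Young CTRL the value was 0.073 for Slc25a44, and with age 0.0046 for Slc25a3, 0.18 for Slc25a44 and -0.027 for Timm10. Between the treated ages they were -0.10 for Slc25a3 and -0.33 for Ucp3, and in the interaction -0.10 for Slc25a3. With limma-voom, Slc25a3 had -0.31 in Aged BAM15 minus Aged CTRL, -0.14 between the treated ages, 0.025 with age and -0.17 in the interaction. Under the same tool Slc25a35 had -0.16 in Aged BAM15 minus Aged CTRL, Slc25a44 0.10 with age and 0.10 in Young BAM15 minus Young CTRL, Slc25a11 0.037 in Young BAM15 minus Young CTRL, Timm10 -0.026 with age and Ucp3 -0.065 between the treated ages. Without the 2 skin keratin libraries Slc25a11 had 0.0055 with age and 0.073 in Young BAM15 minus Young CTRL. With the covariates, Young BAM15 minus Young CTRL was 0.23 for Slc25a44 and -0.26 for Slc25a37.

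Leaving out single libraries, Slc25a11 ran from -0.15 to 0.023 and Slc25a44 from -0.12 to 0.10 in Young BAM15 minus Young CTRL. With age, Slc25a3 ran from -0.31 to 0.078, Slc25a44 from -0.079 to 0.13, Slc25a46 from -0.57 to 0.24 and Timm10 from -0.12 (without Aged CTRL 2) to 1.06. With 5 to 7 mice a group and a common biological coefficient of variation of 0.621, small differences were not detectable. All samples share 1 count table, and whether litters or cages were shared is not in the labels.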
